A study of Mus musculus with 18 samples.

Results

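Periaxin (Prx), peripheral myelin protein 22 (Pmp22), the transcription factor EGR2 (Egr2), dystrophin-related protein 2 (Drp2), claudin 19 (Cldn19) and the noncompact myelin-associated protein (Ncmap) were followed through RNAseq of dorsal spinal tissue. These 6 genes, of 18182 single-gene names read in the series, were selected on their deposited values in these same groups, and their changes are therefore given as a description. Prx is also a gene that the study itself singled out from these samples. The study also measured Prx by quantitative RT-PCR in additional samples, and reports that this bore out the changes of the genes it selected. Those measurements were not read here. For a name with several rows, the row with the highest mean FPKM (a level scaled to transcript length and to the number of mapped fragments) over the 6 group values was taken. All 6 members were found in all 3 tables and had more than 0.5 FPKM in every group.

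The tissue came from the lumbar segments of C57BL/6 mice (C57BL/6N in the methods of the study) of 3 months, collected 24 h after intraplantar injection of CFA (complete Freund's adjuvant, which inflames the paw) or saline. All mice had received intraspinal rAAV, a viral vector, that expressed LacZ (a bacterial enzyme, used as the control), HDAC4 wt (the wild-type histone deacetylase) or HDAC4 3SA (a mutant that stays in the nucleus). The study draws the LacZ vector with a CMV promoter and both HDAC4 vectors with a synapsin promoter, which is active in neurons, so the control differs from the HDAC4 vectors in promoter as well as in transgene. The 6 groups held 3 mice each, 18 in all, and the deposited tables give 1 value per group, so that no SD and no test across mice could be computed from them, and the number of reads behind a value is not in the tables. A difference is called past the fold limit where the log2 fold change, with 0.1 FPKM added to both groups, lies beyond 0.5 in either direction. Hdac4 itself had between 7.41 and 10.8 FPKM, with saline and CFA levels of 7.41 and 7.72 FPKM for LacZ, 10.1 and 10.8 FPKM for HDAC4 wt and 8.86 and 8.81 FPKM for HDAC4 3SA. The files do not separate the mouse gene from the transgene.

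Schwann cells wrap the axons of peripheral nerves and spinal roots in myelin, whereas oligodendrocytes make the myelin of the spinal cord. EGR2 switches on the myelin genes of Schwann cells together with SOX10. PMP22 is a protein of compact peripheral myelin. Periaxin and DRP2 link the outer Schwann cell membrane through dystroglycan to the basal lamina, claudin 19 forms tight junctions between the layers of the Schwann cell membrane, and NCMAP lies in noncompact peripheral myelin. In such bulk tissue, fewer cells of a type and less RNA per cell cannot be told apart.

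The promoters of the members are shown because the genes moved together in part and because EGR2, itself a member, is known to act on myelin genes. RefSeq windows on GRCm38.p6 were found for 5 of the 6 members, all but Drp2. Of the windows of each gene, the one nearest to the 5′ end of the counted locus was read, over the 250 bases before the start of transcription. That RefSeq start lay 253 bases inside the counted locus for Cldn19, 67 for Pmp22 and 7 for Prx. The Cldn19 window therefore lies wholly within its counted locus, and those of Pmp22 and Prx overlap theirs in part. Capitals mark matches to CCAAT (the CCAAT box), GGAATG (bound by TEAD factors) and GGGCGG (the GC box) on either strand. The 4 windows printed here lie at chr7:27499074-27499323 (plus strand) for Prx, at chr11:63128732-63128981 (plus strand) for Pmp22, at chr4:119255191-119255440 (plus strand) for Cldn19 and at chr4:135398228-135398477 (minus strand) for Ncmap.
Prx: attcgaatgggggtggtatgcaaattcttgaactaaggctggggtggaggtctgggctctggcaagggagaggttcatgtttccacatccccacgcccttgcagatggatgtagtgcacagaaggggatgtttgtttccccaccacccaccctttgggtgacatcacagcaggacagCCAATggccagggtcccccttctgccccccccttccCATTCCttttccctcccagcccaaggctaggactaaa
Pmp22: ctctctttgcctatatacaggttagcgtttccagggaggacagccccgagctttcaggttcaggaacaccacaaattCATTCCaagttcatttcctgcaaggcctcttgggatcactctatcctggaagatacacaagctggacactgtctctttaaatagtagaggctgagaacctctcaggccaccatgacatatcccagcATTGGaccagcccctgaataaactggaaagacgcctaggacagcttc
Cldn19: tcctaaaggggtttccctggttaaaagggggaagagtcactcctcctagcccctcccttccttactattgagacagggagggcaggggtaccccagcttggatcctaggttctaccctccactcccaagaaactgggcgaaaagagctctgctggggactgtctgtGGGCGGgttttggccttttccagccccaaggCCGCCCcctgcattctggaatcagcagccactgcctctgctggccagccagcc
Ncmap: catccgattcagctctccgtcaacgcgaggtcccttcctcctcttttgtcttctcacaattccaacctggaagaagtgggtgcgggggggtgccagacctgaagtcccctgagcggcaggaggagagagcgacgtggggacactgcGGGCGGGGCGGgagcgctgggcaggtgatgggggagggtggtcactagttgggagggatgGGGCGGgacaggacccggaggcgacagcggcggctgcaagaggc

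Prx and Pmp22 each held in this window 1 CCAAT box and 1 GGAATG match. The CCAAT box lay 73 to 69 bases before the start in Prx and 47 to 43 bases before it in Pmp22. Neither window held a GC box, while those of Cldn19, Ncmap and Egr2 held 2, 3 and 4 GC boxes and no CCAAT or GGAATG match. In Ncmap, 2 of the GC boxes overlapped each other by 1 base, and no match overlapped one of another motif. Among 32851 promoter windows of the same length, 33.9% held a CCAAT box, 12.6% a GGAATG match and 32.7% a GC box. The EGR motif GCGNGGGCG, present in 4.70% of all windows, and the SOX motifs ACAAAG (16.5%) and ACAATG (10.7%) were found in none of the 5 windows. This says only that these letters are not in these windows. Other RefSeq starts of Pmp22, Egr2 and Ncmap, of which Pmp22 has 4 in all and Egr2 5, had other sets of matches. Some further Pmp22 windows held GC boxes, further Egr2 windows held a CCAAT box or a GGAATG match, and the other Ncmap window held a CCAAT box and no GC box. The split between GC boxes and the other matches therefore holds only for the windows read above.

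Prx was counted on chromosome 7 from 27499317 to 27520197. In LacZ mice its level was 50.9 FPKM with saline and 83.8 FPKM with CFA, a 1.65-fold difference. With HDAC4 wt the levels were 53.2 and 51.8 FPKM (0.974-fold), and with HDAC4 3SA they were 69.9 and 41.6 FPKM (0.596-fold). The highest value was thus that of CFA-treated LacZ mice and the lowest that of CFA-treated HDAC4 3SA mice, 2.01-fold apart, and the HDAC4 wt values lay within a few percent of each other. The locus holds 99.7% of the exon bases that GENCODE M21 annotates for Prx. An antisense gene, Gm15541, overlaps it, and the strand setting used in counting is not given in the sources used here.

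Drp2, whose protein binds periaxin, increased with CFA from 21.7 to 33.7 FPKM under LacZ (1.55-fold). Its saline and CFA levels were 21.5 and 21.1 FPKM under HDAC4 wt (0.983-fold), and 26.7 and 19.3 FPKM under HDAC4 3SA (0.724-fold). Its order of groups began and ended as that of Prx did. The locus lies on chromosome X from 134404535 to 134457205 and holds 100% of the annotated exon bases. A further row of that name, just downstream, had 1.46% of the level or less in each group.

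Pmp22, the most abundant member, was counted on chromosome 11 from 63128915 to 63159770. With saline and CFA, respectively, it reached 241 and 364 FPKM under LacZ (1.51-fold), 244 and 254 FPKM under HDAC4 wt (1.04-fold), and 336 and 233 FPKM under HDAC4 3SA (0.693-fold). Its highest and lowest groups were again CFA-treated LacZ and CFA-treated HDAC4 3SA mice, but they were only 1.56-fold apart. Pmp22 is also known to be made by cells outside the nerve, such as fibroblasts.

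Cldn19 was counted on chromosome 4 from 119255188 to 119262449. Its pairs of saline and CFA levels were 8.29 and 12.5 FPKM for LacZ (1.51-fold), 8.62 and 8.64 FPKM for HDAC4 wt, and 12.0 and 7.13 FPKM for HDAC4 3SA (0.595-fold). These groups stood in the same order as those of Pmp22. A second row with the same name and the same coordinates had between 8.47% and 14.2% of these values, and an antisense gene, Gm12927, overlaps the locus.

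Ncmap was counted on chromosome 4 from 135367676 to 135398048, a locus that holds 92.0% of its annotated exon bases. In LacZ mice its saline level was 7.50 FPKM and its CFA level 10.6 FPKM (1.42-fold). The same pair was 10.9 and 9.05 FPKM for HDAC4 wt (0.828-fold), and 12.6 and 6.74 FPKM for HDAC4 3SA (0.533-fold). It had the largest decrease of the 6 in HDAC4 3SA mice. A second row at the same coordinates had 18.0% to 40.6% of the level of the row used, with the highest share in saline-treated LacZ mice, and how the rows relate to each other is not given in the sources used here. With both rows summed, the log2 fold change of Ncmap was 0.42, -0.16 and -0.84 in LacZ, HDAC4 wt and HDAC4 3SA mice.

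Egr2, the least abundant member, was counted on chromosome 10 from 67535658 to 67542188. Saline and CFA levels were 2.53 and 4.23 FPKM under LacZ (1.67-fold), 4.21 and 4.04 FPKM under HDAC4 wt (0.959-fold), and 4.36 and 3.64 FPKM under HDAC4 3SA (0.835-fold). A single group, saline-treated LacZ mice, stood below the others, which spanned 3.64 to 4.36 FPKM. Egr2 is also an activity-regulated gene of neurons, and the tables do not tell its sources apart. For none of the 6 genes can it be said which neighbouring groups in these orders differ by more than the spread between mice.

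**Figure D1:**
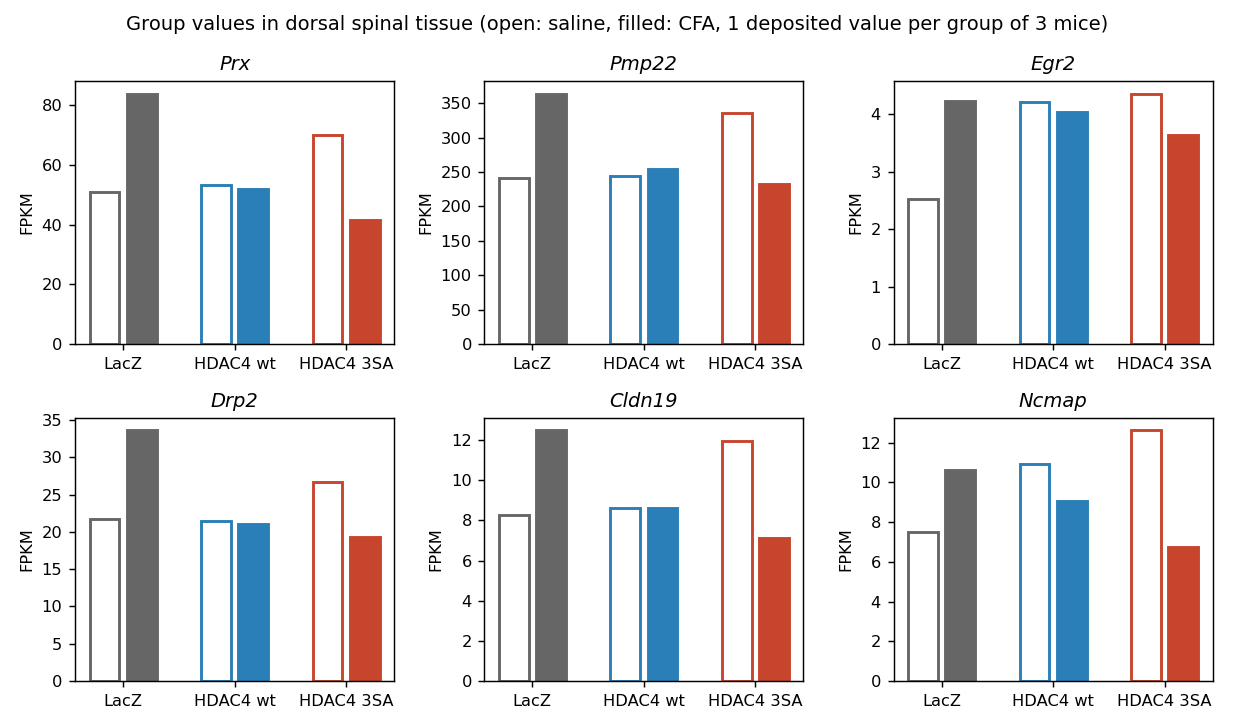
FPKM (vertical axes, linear from 0) of the 6 members in the 6 groups. Open bars are saline and filled bars CFA, grey for LacZ, blue for HDAC4 wt and red for HDAC4 3SA, with 1 deposited value per group of 3 mice and therefore no error bars. Every member is higher after CFA in LacZ mice and lower after CFA in HDAC4 3SA mice, and the HDAC4 wt bars are close to level except for Ncmap.

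Read as log2 fold changes, the 6 members were all higher after CFA in LacZ mice, with a median of 0.61 (range 0.50 to 0.72), and 5 of the 6 were past the fold limit. Over all genes with at least 0.5 FPKM, 3.5% of 15161 were up past the limit in LacZ mice and 2.08% down, with a median of 0.01. Ncmap stood at 0.499, just short of the limit, and at 0.504 with nothing added to the FPKM. In HDAC4 wt mice the median of the members was -0.03 (range -0.27 to 0.06) and none was past the limit, where 4.67% of 15775 genes were up and 2.95% down and the median of all genes was 0.00. In HDAC4 3SA mice all 6 were lower after CFA, with a median of -0.63 (range -0.90 to -0.25). Prx, Pmp22, Cldn19 and Ncmap were past the limit, Drp2 stood at -0.46 and Egr2 at -0.25, and of 15744 genes 8.99% were up and 3.2% down, with a median of 0.01.

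Among the genes of the respective table, 1.74% had a log2 fold change as high as that of Prx in LacZ mice, and 1.28% had one as low as that of Prx in HDAC4 3SA mice. For Ncmap these shares were 3.51% and 0.934%, and for Egr2 they were 1.73% and 11.5%. The combination of a rise past the limit in LacZ mice and a fall past it in HDAC4 3SA mice was found for 63 of 14906 genes (0.423%), among them Prx, Pmp22 and Cldn19. The LacZ and HDAC4 3SA mice are different animals, and the members were named with such values known.

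If the members rose or fell by a common factor, their ratios to each other would be equal in all groups, and such ratios within a group do not depend on the normalization. Within LacZ mice the folds lay between 1.42 and 1.67, with an SD over the 6 genes of 0.08 on the log2 scale. Within HDAC4 wt mice the SD was 0.11, and within HDAC4 3SA mice it was 0.23, where the folds ran from 0.533 for Ncmap to 0.835 for Egr2. A common factor thus described the LacZ values more closely than the HDAC4 3SA values.

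The ratio to Prx within each group separated the members. Cldn19 lay between 14.9% and 17.1% of the Prx value, a span of 1.15-fold over the 6 groups, and Drp2 between 38.2% and 46.4%, a span of 1.22-fold. Pmp22 ranged from 434% in CFA-treated LacZ mice to 560% in CFA-treated HDAC4 3SA mice, a span of 1.29-fold. Ncmap ranged from 12.7% to 20.6% (1.62-fold) and Egr2 from 4.97% to 8.74% (1.76-fold). Prx itself spanned 2.01-fold, more than any of these ratios.

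By these ratios, Cldn19, Drp2 and Pmp22 followed Prx more closely across the groups than Ncmap and Egr2 did. Since Prx itself spanned 2.01-fold, a gene with an even level gives a span of about that size. Among other genes the ratio to Prx spanned 1.90-fold for Mobp of oligodendrocytes and 2.39-fold for Mag of both kinds of myelin, and the Schwann cell genes Cdh19, Cadm4 and Fxyd3 spanned 2.01-, 1.99- and 1.99-fold. Art3 spanned 1.26-fold, Itgb4 1.46-fold and Dhh 1.52-fold.

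**Figure D2:**
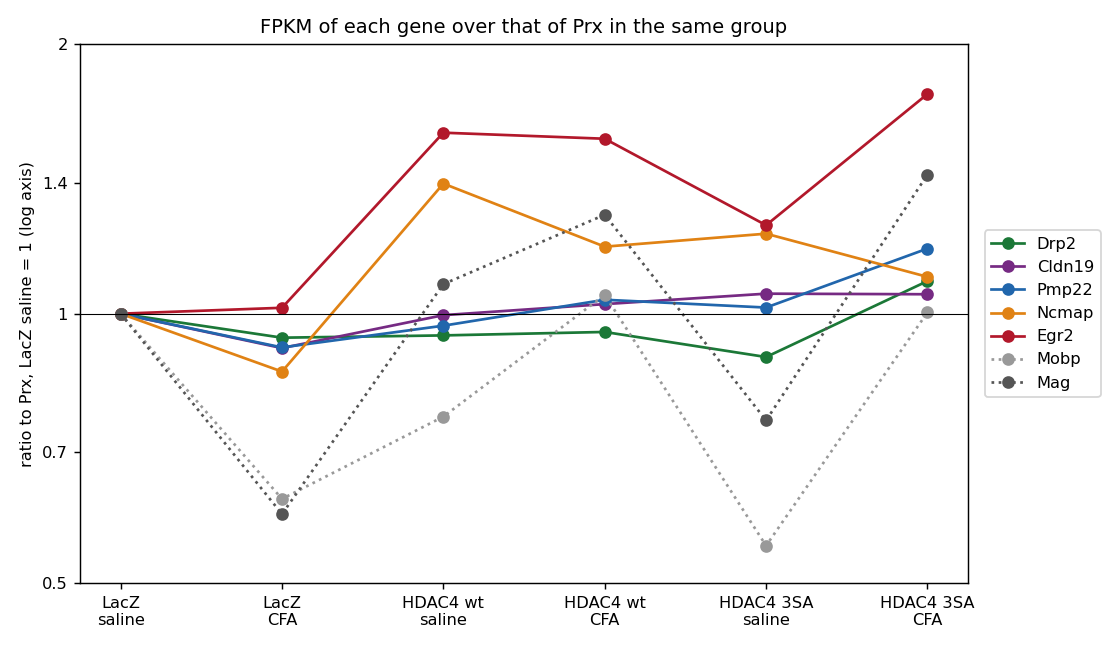
FPKM of each gene divided by that of Prx in the same group and set to 1 in saline-treated LacZ mice (vertical axis, log scale), for the 6 groups (horizontal axis). Solid lines are members, dotted lines are Mobp (oligodendrocytes) and Mag (both kinds of myelin), and lines only connect values of a gene. Drp2, Cldn19 and Pmp22 stay near 1, with spans of 1.15- to 1.29-fold, and Egr2 spans 1.76-fold.

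Levels after saline also differed between the vectors, although the 3 tables were normalized in separate runs and can only be set side by side. Relative to saline-treated LacZ mice, the 6 members had 1.23 to 1.72 times the level in saline-treated HDAC4 3SA mice (median 1.42) and 0.987 to 1.66 times the level in saline-treated HDAC4 wt mice (median 1.04). After CFA they had 1.42 to 1.67 times that level in LacZ mice, 0.970 to 1.59 times in HDAC4 wt mice and 0.817 to 1.44 times in HDAC4 3SA mice (medians 1.53, 1.05 and 0.894). The decrease in HDAC4 3SA mice therefore started from a saline value above that of LacZ mice and, for Prx, Pmp22, Drp2, Cldn19 and Ncmap, ended below it.

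Other Schwann cell genes were read from a list of 14 names, of which 13 had a row of their own and 11 reached 0.5 FPKM in each table. Pmp2 shares its row with another gene and was not read. In LacZ mice all 11 were higher after CFA, with a median log2 fold change of 0.30, and 3 were past the limit: Art3, Dhh and Foxd3. In HDAC4 wt mice 6 were higher and 5 lower (median 0.01), and none was past the limit. In HDAC4 3SA mice 9 were lower and 2 higher (median -0.20), with Art3 and Scn7a down past the limit and Ngfr up past it.

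Art3, an ADP-ribosyltransferase gene, had folds of 1.46, 0.968 and 0.611 in LacZ, HDAC4 wt and HDAC4 3SA mice. Dhh, a signal from Schwann cells to the nerve sheath, had log2 fold changes of 0.66, -0.19 and -0.43 in the same order. Others of the list lay closer to no change. Cadm4, an adhesion molecule of myelinating glia, had log2 fold changes of 0.19, 0.17 and 0.01, and Cdh19, a cadherin of the Schwann cell lineage, of 0.26, 0.04 and -0.16. Scn7a, found in nonmyelinating Schwann cells and in some neurons and astrocytes, stood at 6.60 FPKM with saline against 2.92 FPKM with CFA under HDAC4 3SA (0.443-fold), and Ngfr, the low-affinity neurotrophin receptor of immature and nonmyelinating Schwann cells, had 3.01 and 4.32 FPKM (1.43-fold).

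The partners of periaxin and DRP2 were read as well. Of 8 genes that encode dystroglycan, utrophin, dystrophin, sarcoglycans, syntrophin and dystrobrevin, none was past the limit in any table, and their medians were 0.04, 0.04 and -0.10 in LacZ, HDAC4 wt and HDAC4 3SA mice. Dag1, which encodes dystroglycan, lay between 31.8 and 36.6 FPKM in all groups. These genes are used by many cells of the cord and its vessels.

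Partners and inducers of EGR2 were read from a list of 12, of which 11 had a row at the same place in all tables. In LacZ and in HDAC4 3SA mice none was past the limit, with medians of 0.05 and 0.03. In HDAC4 wt mice Id4, an inhibitor of differentiation, and Nrg1, the neuregulin that instructs Schwann cells to myelinate, were up past it, with log2 fold changes of 0.63 and 0.68. Sox10, which oligodendrocytes express as well, had 31.5 and 35.0 FPKM with saline and CFA under LacZ, 39.3 and 45.3 FPKM under HDAC4 wt, and 35.7 and 42.1 FPKM under HDAC4 3SA, where Egr2 was lower with CFA. Erbb3, the neuregulin receptor, had folds of 1.08, 1.17 and 0.963, and Nab1 and Nab2, which encode proteins that bind EGR2, had folds between 0.962 and 1.11 in the 3 vectors.

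The genes of central myelin were compared next. Of 11 oligodendrocyte genes none was past the limit in any table, with medians of 0.01 (LacZ), 0.18 (HDAC4 wt) and 0.15 (HDAC4 3SA). Mobp, a myelin protein of oligodendrocytes, had saline and CFA levels of 1103 and 1128 FPKM under LacZ, 884 and 1177 FPKM under HDAC4 wt (1.33-fold, the highest of the list), and 834 and 905 FPKM under HDAC4 3SA. All 11 were higher after CFA in HDAC4 wt mice, with a summed level of 1373 FPKM after saline and 1747 FPKM after CFA. Mobp alone made up 884 and 1177 FPKM of these sums. For Mog the 3 pairs were 102 and 97.1 FPKM, 108 and 121 FPKM, and 101 and 112 FPKM. Of 10 myelin genes that both cell types express, none was past the limit either, with medians of 0.01, 0.16 and 0.06. Mbp, 1 of the 10, was read from a row with only 5.40 to 6.66 FPKM, and whether that row holds most of its transcripts was not checked. Mag, an adhesion protein of both kinds of myelin, had folds of 0.984, 1.16 and 1.12.

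**Figure D3:**
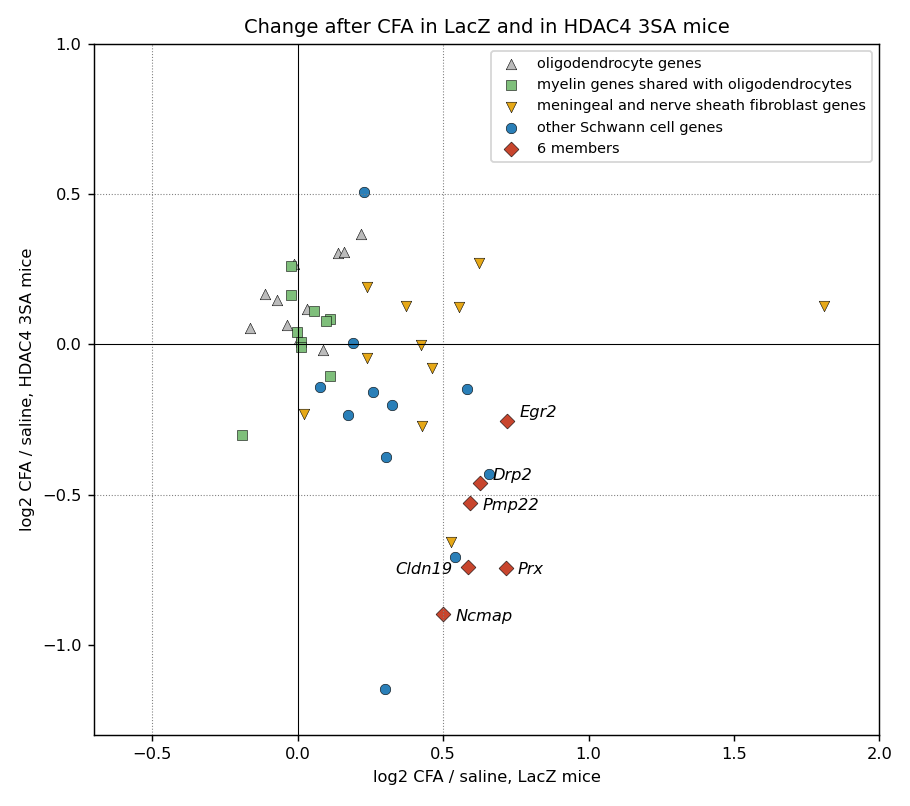
Log2 fold change of CFA over saline in LacZ mice (horizontal axis) and in HDAC4 3SA mice (vertical axis), both with 0.1 FPKM added, for genes of 5 lists that reach 0.5 FPKM in both tables. Each symbol is a gene, and dotted lines mark the fold limit of 0.5. The 6 members (red diamonds) lie to the lower right, whereas genes of oligodendrocytes and shared myelin genes lie around 0 on the horizontal axis.

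Markers of other cells and regions moved in these samples as well, and their part in the changes of the members was not tested. Genes of meningeal and nerve sheath fibroblasts were higher after CFA in LacZ mice for 13 of 13 genes (median log2 fold change 0.46, summed level 175 FPKM after saline and 242 after CFA). In HDAC4 wt mice 8 of 13 were higher (235 and 241 FPKM), and in HDAC4 3SA mice 5 of 11 were higher (220 and 213 FPKM). Skeletal muscle genes were higher in LacZ mice for 8 of 8 (21.8 and 44.7 FPKM), lower in HDAC4 wt mice for 4 of 5 (7.58 and 4.35 FPKM) and lower in HDAC4 3SA mice for 6 of 8 (72.3 and 63.6 FPKM). Of 9 markers of dorsal root ganglion neurons, 5 had a row and 3 reached 0.5 FPKM in LacZ mice, with a summed level of 2.17 FPKM after saline and 2.08 after CFA. In HDAC4 3SA mice 3 reached it (7.31 and 8.37 FPKM, 6.28 and 6.93 FPKM of it from Avil), and in HDAC4 wt mice only Avil did, which went from 3.16 to 9.96 FPKM. Scn10a, Scn11a, Mrgprd and Prdm12, defining genes of nociceptors, had no row under those names.

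Marker levels of ventral and dorsal cord neurons differed between the groups as well, with 1 value per group and no test across mice. Motor neuron genes, which belong to the ventral horn, were higher after CFA for 6 of 6 genes in LacZ mice (48.6 and 62.4 FPKM in sum), 5 of 5 in HDAC4 wt mice (21.3 and 50.3 FPKM) and 6 of 6 in HDAC4 3SA mice (35.8 and 88.1 FPKM). Genes of the dorsal horn, a list written after the values of some of its genes had been seen, were higher after CFA for 5 of 5 genes in LacZ mice (median 0.35, 117 and 148 FPKM in sum). They were lower for 5 of 5 genes in HDAC4 wt mice (median -0.34, 156 and 125 FPKM) and in HDAC4 3SA mice (median -0.45, 128 and 99.5 FPKM). Lmx1b, a transcription factor of dorsal horn neurons, had folds of 1.11, 0.794 and 0.659, and Tac1, which encodes substance P, of 1.30, 0.853 and 0.786. The markers of the labelled tissue were thus present in all groups, and their share against ventral markers differed between saline and CFA within each HDAC4 vector. Side by side, the medians of the dorsal horn list and of the members were 0.35 and 0.61 in LacZ mice, -0.34 and -0.03 in HDAC4 wt mice, and -0.45 and -0.63 in HDAC4 3SA mice.

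**Figure D4:**
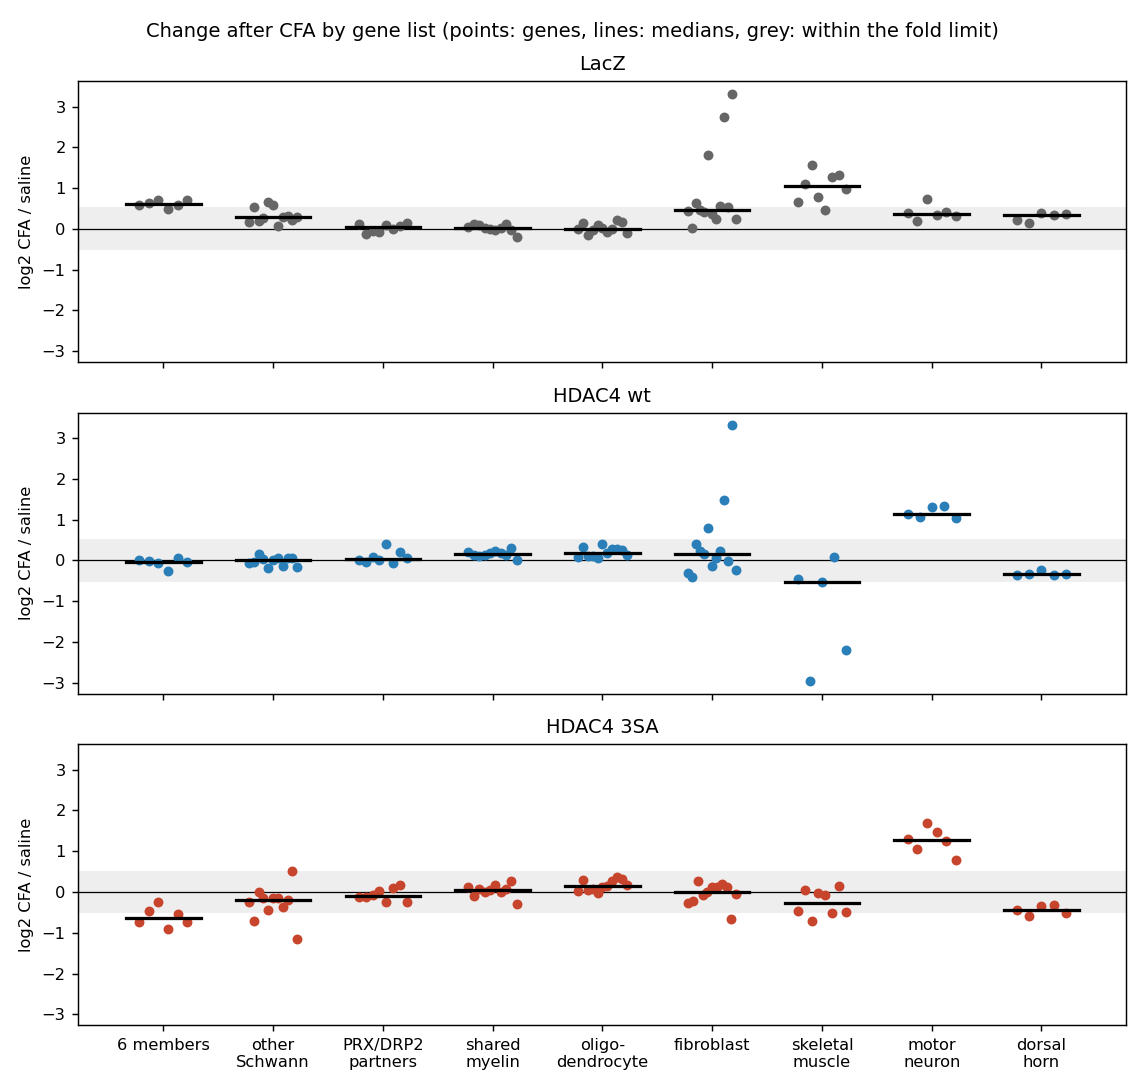
Log2 fold change of CFA over saline (vertical axis) for each gene of 9 lists (horizontal axis) in LacZ (top), HDAC4 wt (middle) and HDAC4 3SA mice (bottom), with 0.1 FPKM added. Points are genes with at least 0.5 FPKM, black lines are medians and the grey band marks changes within the limit of 0.5. The members have medians of 0.61, -0.03 and -0.63, oligodendrocyte and shared myelin genes stay within the band in all 3, and motor neuron genes have medians of 0.36, 1.14 and 1.27.

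The genes whose pattern was nearest to the members were found by the root mean square difference from the mean pattern of the members, over the 6 groups on the log2 scale, each gene centred on its own mean. Among 15554 genes the median of this difference was 0.288. The nearest were 4930429F24Rik (0.023), Ogn (0.040), Art3 (0.044), Plekha4 (0.048), Sbspon (0.071), Mfap5 (0.071), Chp2 (0.073), Cfap100 (0.074), Fam178b (0.096) and Cdh1 (0.099). Ogn, which encodes the matrix proteoglycan osteoglycin, had saline and CFA levels of 31.2 and 45.0 FPKM under LacZ, 33.9 and 33.7 FPKM under HDAC4 wt and 43.5 and 27.5 FPKM under HDAC4 3SA, and it is also one of the fibroblast genes read above. Plekha4 had log2 fold changes of 0.70, -0.15 and -0.61, and Cdh1, which encodes E-cadherin, of 0.73, 0.23 and -0.61. Of the members, Cldn19 was nearest to their mean (0.067) and Egr2 farthest from it (0.215), which placed Egr2 at rank 768 of all genes. The members themselves make up the mean pattern.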

How the data were processed

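RNAseq of dorsal spinal tissue from 18 mice in 6 groups was read from 3 deposited tables, 1 per vector. The authors made poly-A selected, strand-specific libraries and, per the labels, used Bowtie, TopHat, Cufflinks and Cuffdiff with mm10/GRCm38. The deposited FPKM values are Cuffdiff's, 1 per group over its 3 mice. Fold changes, statistics, p- and q-values of the authors' own comparison were not used. The methods state a minimum number of reads per library, but the tables hold no counts and no values per mouse, so no error and no further test across mice could be computed and FPKM carry no interval.

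Each table has 34579 loci. Loci without a name (8609), with several names (203) or at places that do not overlap between tables (386) were left out. The members and lists were chosen by name with earlier results of these data known. Fold changes were computed as log2 of CFA over saline with 0.1 FPKM added, for genes whose mean over the pair reached 0.5 FPKM, leaving out genes listed at 0 in a group (20, 40 and 37 in LacZ, HDAC4 wt and HDAC4 3SA mice). That last choice was made after seeing the data. Starts of loci are given counting from 1. Genes were named by a rule: members, list genes (for marker lists the 3 most abundant) and the 10 genes nearest in pattern. Avil, Scn10a, Scn11a, Mrgprd, Prdm12 and the dorsal horn genes were named outside it, after their values or absence were seen. Some genes of the lists are not reported here and were left out of the counts. Python 3.11.15, pandas 2.3.3, NumPy 2.4.6 and Matplotlib 3.10.9 were used. The fold calculation was tested on simulated data with nothing added, no minimum level, little noise and changes well past the fold limit. Values near the limit were not covered by that test. Alternatives were another added value, centring, minimum level, fold limit and summing rows of a name.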

Additional observations from a re-analysis of the deposited data

How the results depend on the processing

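Of 198 values computed under an alternative, 192 kept their side of the fold limit or stayed within 1.5 times the reported count or spread, 6 moved and 0 reversed. With a fold limit of 1 on the log2 scale, 0 members were past it in LacZ mice and 0 in HDAC4 3SA mice. Of 108 values of single members, 1 moved: Ncmap in LacZ mice passed 0.5 with nothing added. Many of the 108 could not move. Changing the minimum level could not alter a member, since all had more than 2 FPKM in every group. Summing rows could not alter Prx, Pmp22 or Egr2, which have a single row each. The fold limit of 1 was not among the settings behind these 108 values. Keeping genes listed at 0 gave 543 genes up and 324 down in LacZ mice, against 531 and 316. No paired analysis was possible because the tables hold 1 value per group, and for the same reason no mouse could be left out. The tables hold no counts, so the precision of the low values of Egr2 and Foxd3 was not computed.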
